A study of Mus musculus with 13 samples.

Results

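The H19-Igf2 and Kcnq1ot1 imprinted domains lie beside each other on distal mouse chromosome 7, and RNA from both was measured in embryonic stem (ES) cells with and without Dnmt1, the enzyme that copies CpG methylation onto new DNA strands. Members were chosen by name: H19, Igf2, Ins2, Ascl2, Kcnq1, Kcnq1ot1, Cdkn1c, Slc22a18 and Phlda2. All 9 were in the count table of 49671 genes, and 8 of them (all but Kcnq1ot1) were in the replicate tables of 26797 genes. Polyadenylated RNA was sequenced from 3 replicate libraries of WT cells (the AinV15 line) and 3 of Dnmt1-null cells (the D1-null line, homozygous for the C allele), both untreated and grown on gelatin with serum and leukemia inhibitory factor. WT and Dnmt1-null cells therefore differ by line as well as by Dnmt1, and these cannot be told apart; nothing in the labels says that replicates came from separate cultures, so p-values measure the spread between libraries, which may be technical. A further 4 libraries, 1 each, came from WT cells, from Dnmt1-null cells, and from AinV15 cells in which doxycycline induced either dCas9-OGA or dCas9-OGA-D242A together with 4 sgRNAs against IAP retrotransposons. The labels describe 8 RNA samples: the single WT and Dnmt1-null libraries were placed in their groups by column name and have no label of their own, so their line and culture are taken from the group. OGA is a bacterial enzyme that removes O-GlcNAc from proteins, D242A is its inactive form, and dCas9 is a Cas9 that binds DNA without cutting it; the WT cells carried no such cassette. The dCas9 libraries were compared to ask what removal of O-GlcNAc adds to binding of dCas9, and Dnmt1-null with WT to ask what loss of methylation does. By the study's methods, the dCas9-OGA construct was integrated into AinV15 cells and recombinant cells were selected. Cells with the active and the inactive form may therefore differ by derivation as well as by enzyme activity. With 1 library each, these cannot be told apart.

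Imprinted genes are transcribed from the maternal or the paternal copy according to a methylation mark that the germ line sets on a control region. Between H19 and Igf2 this region is methylated on the paternal copy; CTCF binds the unmethylated maternal copy and keeps shared enhancers from Igf2, so H19 is made from the maternal and Igf2 from the paternal chromosome. In the neighbouring domain the control region holds the promoter of Kcnq1ot1, is methylated on the maternal copy, and on the paternal copy drives this long antisense RNA, whose transcription accompanies silencing of Cdkn1c, Phlda2, Slc22a18, Ascl2 and Kcnq1 on the same chromosome. Reads here were counted per gene and not per allele, so expression from 1 or from both copies cannot be told apart.

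In the GENCODE vM21 annotation (GRCm38, the mm10 build of the files) the order along chromosome 7 is H19 (142575529 to 142578143, minus strand, a lincRNA), Igf2 (142650766 to 142666816, minus), Ins2 (142678656 to 142743381, minus) and Ascl2 (142966829 to 142969264, minus). They are followed by Kcnq1 (143106362 to 143427042, plus), Kcnq1ot1 inside it (143203458 to 143296549, minus), Cdkn1c (143458339 to 143461050, minus), Slc22a18 (143473736 to 143499334, plus) and Phlda2 (143501545 to 143503150, minus). Kcnq1ot1 has 121 bases of exon in common with Kcnq1 on the opposite strand, Igf2 has 98 with Igf2os, and 30.7% of the exon bases of Cdkn1c lie under the antisense gene Gm44732, which had 0 counts in all 4 single libraries. The strand setting of the counting is not given in the sources used here, so the reads of such pairs cannot be told apart.

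CpG dinucleotides are the sites that Dnmt1 methylates, and RefSeq promoter windows (GRCm38.p6) were found for 5 of the 9 members. The 250 bases before the start site are printed 5′ to 3′ on the strand of each gene, with every CpG in capitals, to show how unequally these sites are spread over the promoters of these genes. Igf2 has 4 such windows, of which the richest in CpG is shown, so its count is a highest of 4.
Igf2: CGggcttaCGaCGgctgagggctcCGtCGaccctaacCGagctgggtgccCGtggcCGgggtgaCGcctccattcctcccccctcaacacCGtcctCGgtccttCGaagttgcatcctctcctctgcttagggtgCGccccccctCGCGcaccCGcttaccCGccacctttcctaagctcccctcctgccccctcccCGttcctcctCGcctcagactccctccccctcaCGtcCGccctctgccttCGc
Ascl2: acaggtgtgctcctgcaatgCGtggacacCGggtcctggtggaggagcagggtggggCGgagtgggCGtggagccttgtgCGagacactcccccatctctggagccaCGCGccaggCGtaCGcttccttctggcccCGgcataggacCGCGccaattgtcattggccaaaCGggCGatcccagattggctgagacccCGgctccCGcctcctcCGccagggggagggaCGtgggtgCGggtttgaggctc
Kcnq1ot1: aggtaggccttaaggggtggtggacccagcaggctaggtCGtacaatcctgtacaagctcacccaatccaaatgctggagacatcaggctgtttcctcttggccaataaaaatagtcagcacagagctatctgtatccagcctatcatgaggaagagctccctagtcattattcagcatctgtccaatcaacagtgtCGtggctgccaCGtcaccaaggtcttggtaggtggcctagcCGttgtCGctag
Slc22a18: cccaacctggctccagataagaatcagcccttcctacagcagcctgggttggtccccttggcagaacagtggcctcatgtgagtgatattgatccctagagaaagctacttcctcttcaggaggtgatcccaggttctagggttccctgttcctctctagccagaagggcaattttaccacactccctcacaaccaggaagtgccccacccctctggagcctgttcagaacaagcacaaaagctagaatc
Phlda2: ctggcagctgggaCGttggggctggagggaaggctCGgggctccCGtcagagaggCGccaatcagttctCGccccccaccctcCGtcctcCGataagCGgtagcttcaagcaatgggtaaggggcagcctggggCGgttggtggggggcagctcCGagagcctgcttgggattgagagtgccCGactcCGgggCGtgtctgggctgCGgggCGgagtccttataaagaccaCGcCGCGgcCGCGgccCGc
The Igf2 window (chr7:142658805-142659054, minus) holds 22 CpGs, and the other 3 windows of Igf2 hold 10, 6 and 1. The Phlda2 window (chr7:143502525-143502774, minus) holds 21. Ascl2 (chr7:142969265-142969514, minus) follows with 19. The windows of Kcnq1ot1 (chr7:143296548-143296797, minus) and Slc22a18 (chr7:143473539-143473788, plus) hold 5 and 0. Of all 32851 promoter windows, 14.8% have at least 22 CpGs, 16.3% at least 21, 19.7% at least 19 and 55.6% at least 5, with a median of 6. The motif CCAAT, searched on both strands, occurs 3 times in the Kcnq1ot1 window and 3 times in that of Ascl2, against 2.79% of all windows with at least 3 matches; a match is a description of the sequence only. The motif TGCCGC, the core of the ZFP57 site, was also searched on both strands. It occurs in none of the members' windows, against 8.68% of all windows. At that rate, a lack of matches in so few windows does not set the members apart. The windows hold only bases before start sites, and the control regions as a whole were not searched. Whether these domains hold ZFP57 sites was therefore not tested.

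H19 also carries the hairpin of miR-675 in its exon, the source of the mature miRNAs printed here with the seed (bases 2 to 8) in capitals.
mmu-miR-675-5p: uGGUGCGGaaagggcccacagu
mmu-miR-675-3p: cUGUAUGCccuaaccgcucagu
The gene of the hairpin, Mir675, had 0 counts in all 4 single libraries; these libraries hold polyadenylated RNA and all of its 84 exon bases are shared with H19 on the same strand.

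In the replicate libraries of Dnmt1-null cells H19 rose and Igf2 fell, as did Cdkn1c and Phlda2 of the neighbouring domain. For H19 the single libraries, described further below, went the other way (log2 ratio of Dnmt1-null to WT −0.42). Values in the replicate libraries are reads divided by the authors' scaled library size (scaled reads), and limma's test on log2(value + 0.5), with Benjamini-Hochberg adjustment over 17297 genes at 0.05, gave the calls. All 6 members that passed the filter on low counts were called, 2 higher and 4 lower, and in all 6 the WT and Dnmt1-null values did not overlap. Those counts stand against a background in which 71.2% of genes tested were called (35.8% higher, 35.4% lower) and 73.3% had groups that did not overlap, so a call alone sets no member apart. A change of at least 2-fold was seen in 3 of the 6 members, against 13.1% of all genes tested (9.41% lower, 3.67% higher). The median log2 fold change of the 6 was −0.60, and that of all genes tested was 0.0069.

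H19, the noncoding RNA of the maternal chromosome, was measured at 93.7, 92.5 and 79.4 scaled reads in the WT libraries and at 234, 231 and 213 in the Dnmt1-null libraries. Each Dnmt1-null library was above every WT library by more than the range within either group. The means were 88.5 ± 7.93 and 226 ± 11.2 (SD, n = 3), 2.56-fold higher in Dnmt1-null cells (log2 fold change 1.35 ± 0.058 SE, limma adjusted p = 4.9e-16).

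Igf2, the growth factor made from the paternal chromosome, was measured at 166, 170 and 137 scaled reads in WT and at 27.7, 29.4 and 30.6 in Dnmt1-null cells. The lowest WT library was far above the highest Dnmt1-null library. The means were 158 ± 17.7 and 29.2 ± 1.46 (SD, n = 3), 5.39-fold lower in Dnmt1-null cells (log2 fold change −2.41 ± 0.066 SE, limma adjusted p = 7.7e-20).

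The levels of the pair therefore moved apart. Per kilobase of exon, the ratio of H19 to Igf2 was 1.31, 1.27 and 1.34 in the WT libraries and 19.7, 18.3 and 16.2 in the Dnmt1-null libraries. The ratio in each library is independent of its scaling, and both groups kept a narrow range.

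Ins2, the insulin gene beyond Igf2, gave 1 read in 1 WT library and none in the other 5 replicate libraries, and a count of 0 allows up to 3 reads per library. No level or change of Ins2 could be measured at this depth.

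Of the domain around Kcnq1ot1, Cdkn1c, an inhibitor of cyclin-dependent kinases, had 19.9, 17.9 and 20.3 scaled reads in WT and 4.32, 5.03 and 4.72 in Dnmt1-null cells. All WT values were higher than all Dnmt1-null values. The means were 19.4 ± 1.28 and 4.69 ± 0.357 (SD, n = 3), 4.13-fold lower in Dnmt1-null cells (log2 fold change −1.94 ± 0.090 SE, limma adjusted p = 2e-15).

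Phlda2, a pleckstrin homology protein that limits growth of the placenta, had 20.6, 21.5 and 21.5 scaled reads in WT and 11.1, 11.7 and 10.9 in Dnmt1-null cells. Both groups were tight and did not overlap. Its means of 21.2 ± 0.496 and 11.3 ± 0.400 (SD, n = 3) differed 1.88-fold (log2 fold change −0.89 ± 0.073 SE, limma adjusted p = 1.1e-10).

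Slc22a18, a membrane transporter of the organic cation family, had 3.86, 3.97 and 3.56 scaled reads in WT and 3.10, 2.63 and 3.17 in Dnmt1-null cells. The groups were apart by a small margin. The difference was 1.28-fold (log2 fold change −0.31 ± 0.12 SE, limma adjusted p = 0.021). That call was lost in the fits without WT replicate 1 (adjusted p = 0.06, limma), without WT replicate 2 (0.067) and without Dnmt1-null replicate 2 (0.098), with DESeq2 (0.058), and with no filter on low values (0.065).

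Ascl2, a transcription factor of the trophoblast, was the member that rose beside H19. It had 3.11, 3.09 and 3.52 scaled reads in WT and 4.98, 5.59 and 6.04 in Dnmt1-null cells, with no overlap. The means were 3.24 ± 0.242 and 5.54 ± 0.534 (SD, n = 3), 1.71-fold higher (log2 fold change 0.69 ± 0.11 SE, limma adjusted p = 8e-06).

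Kcnq1, a potassium channel subunit, was near the limit of detection, at 7, 9 and 6 reads in the WT and 5, 10 and 4 reads in the Dnmt1-null libraries. The groups overlapped, and in the fit without a filter on low values its log2 fold change was −0.03 ± 0.10 SE (limma adjusted p = 0.84).

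**Figure D1:**
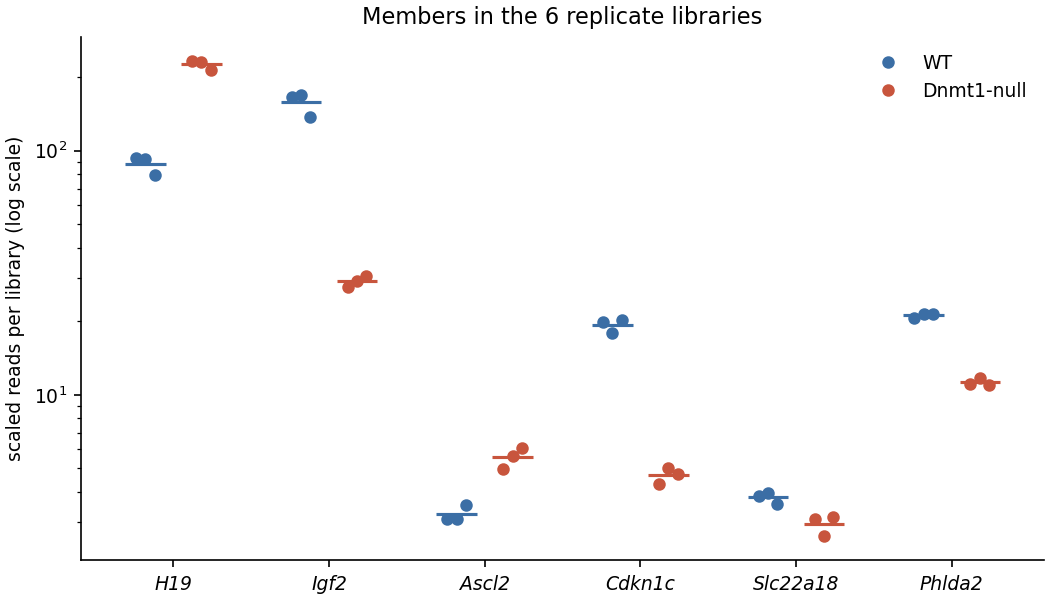
Scaled reads (log axis) of the 6 members tested, with 1 point per library (3 WT, 3 Dnmt1-null) and a bar at each group's mean. H19 and Ascl2 were higher in every Dnmt1-null library, and Igf2, Cdkn1c, Slc22a18 and Phlda2 were lower.

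Compared per kilobase of exon in scaled reads, the order of levels in WT was H19 (36.0 ± 3.22, SD, n = 3), Igf2 (27.6 ± 3.10), Phlda2 (18.9 ± 0.443), Cdkn1c (9.50 ± 0.630), Slc22a18 (2.24 ± 0.127), Ascl2 (2.00 ± 0.149) and Kcnq1 (0.0553 ± 0.0023). The levels of Slc22a18 and Ascl2 overlapped between libraries, and the other neighbours in this order did not. In Dnmt1-null cells the order was H19 (92.0 ± 4.54), Phlda2 (10.0 ± 0.357), Igf2 (5.11 ± 0.255), Ascl2 (3.41 ± 0.329), Cdkn1c (2.30 ± 0.175), Slc22a18 (1.75 ± 0.172) and Kcnq1 (0.0530 ± 0.0239). Igf2 thus moved from the second to the third place, and Ascl2 from below Cdkn1c to above it; no neighbours in this second order overlapped between libraries.

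Dnmt1 itself was at 336 scaled reads in WT and 75.5 in Dnmt1-null cells (log2 fold change −2.14, limma adjusted p = 1.1e-20), as the labels require, with reads remaining in the null line. Markers of ES cells summed to between 4990.5 and 5100.6 scaled reads in WT and between 4563 and 4833.7 in Dnmt1-null cells, over 7 of 8 markers, of which 4 fell (among them Esrrb, −0.45, Tfcp2l1, −0.31, and Pou5f1, −0.17, as log2 fold changes), none rose and 3 were not called. The 8 fibroblast markers all fell in Dnmt1-null cells with a median log2 fold change of −2.40, led by Dcn (−2.96), Postn (−2.83) and Fbln2 (−2.65), each an extracellular matrix protein. Their sum was 2119, 2493 and 1725 scaled reads in the WT libraries and 394, 409 and 374 in the Dnmt1-null libraries, none of the 8 was at 0 in every library, and WT replicate 3 was the lowest WT library for this sum, for Igf2 and for H19. Igf2 is abundant in embryonic fibroblasts, and the part of these markers in its fall was not tested. In bulk RNA, fewer cells of a type and less RNA per cell cannot be told apart. Trophoblast markers, by contrast, summed to between 20.1 and 23.9 in WT and between 32.8 and 34.7 in Dnmt1-null cells; 4 of the 6 tested rose, among them Hand1 (3.03), Eomes (1.08) and Gata3 (1.03, all log2 fold changes), and 2 fell. This list moved in the same direction as Ascl2, and its part in that rise was not tested. Primitive endoderm markers rose in 6 of 7 tested (Foxa2, 1.18; Sox17, 1.03; Sox7, 1.01), with sums of 143 to 146 and 204 to 213. Of 5 mesoderm markers tested, Mixl1 rose (0.61), Pdgfrb fell (−0.77) and 3 were not called.

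Most of the genes called around the members also fell. Between 300 kb before H19 and 300 kb after Phlda2, 19 genes other than the members were tested, of which 10 fell, 3 rose and 6 were not called (68.4% called), with a median log2 fold change of −0.40. The 8 fibroblast markers moved the same way (median −2.40), and their part was not tested. Between the single Dnmt1-null and WT libraries, 9 neighbours compared had a median log2 ratio of −0.31, with 2 at least 2-fold lower and 0 higher. The background there was 6.89% of genes lower and 10.5% higher, and 1018 genes compared on chromosome 7 had a median of −0.21. In the replicate libraries, all 1343 genes tested on chromosome 7 had a median log2 fold change of −0.009, with 446 higher and 480 lower (69.0% called). Of the 13 neighbours called, 9 differed at least 1.5-fold, 8 of them lower. On the far side of H19 from Igf2, Lsp1, an actin-binding protein of leukocytes, fell from 8.46 ± 1.5 to 1.32 ± 0.247 scaled reads (log2 fold change −2.29), Ifitm10 fell (−0.95), and Tnnt3, a troponin of skeletal muscle, rose (0.60). Igf2os, antisense to Igf2, fell from 3.34 ± 0.430 to 0.344 ± 0.132 scaled reads (−2.19), 9.72-fold without the pseudocount against 5.39-fold for Igf2, with which it shares exon bases. R74862, in the stretch between Ascl2 and Kcnq1, fell by 1.44 on the log2 scale.

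Beyond Phlda2, Osbpl5, an oxysterol-binding protein imprinted in placenta, fell from 26.2 ± 4.50 to 6.47 ± 0.661 scaled reads (log2 fold change −1.93, limma adjusted p = 1.7e-14). The change of Cdkn1c, nearer to H19, was −1.94 on the same scale. The TNF receptor family genes Tnfrsf23 (−1.76) and Tnfrsf26 (−1.09) and the receptor gene Mrgpre (−0.998) also fell.

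**Figure D2:**
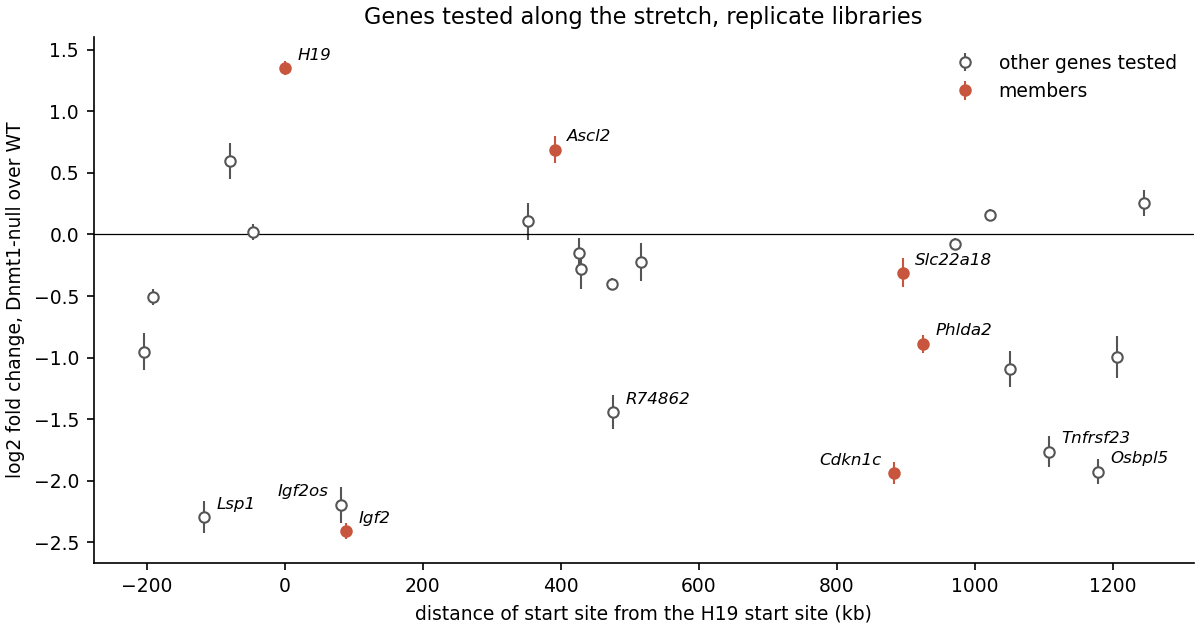
Log2 fold change of Dnmt1-null over WT (limma, bars are 1 SE) for the 25 genes tested along the stretch, against the distance of each start site from that of H19 in kb on a linear axis. Filled points are the 6 members and open points the other genes; H19 (1.35) and Igf2 (−2.41), with start sites 88.7 kb apart, sit at opposite ends of the vertical axis.

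In the replicate libraries most factors that hold imprints rose. Of the 14 genes tested from a list of 15 factors of imprint maintenance and H19-Igf2 control, 11 rose, 2 fell and 1 was not called, with a median log2 fold change of 0.34, where 71.2% of all genes tested were called (35.8% higher, 35.4% lower; the same background applies to the lists that follow). Dppa3, which protects methylation in the early embryo, rose from 1.51 to 16.7 scaled reads (log2 fold change 3.10). Dnmt3l, the cofactor of the de novo methyltransferases, rose from 247 to 755 (1.61). Dnmt1, also in this list and removed by the genotype, was 1 of the 2 that fell (−2.14). In the single libraries, whose values are counts scaled to library size (cpm) and have no test, 15 genes of this list had a median log2 ratio of Dnmt1-null to WT of −0.33, opposite in sign, with Dppa3 at 2.84 and Dnmt3l at −0.31. Among 8 chromatin factors linked to silencing by Kcnq1ot1, 6 rose, 1 fell and 1 was not called (median 0.26), led by the Polycomb subunit Suz12 (1.43), the histone methyltransferase Ehmt1 (0.56) and the ubiquitin ligase Rnf2 (0.33). Their median in the single libraries was −0.18, with Suz12 at 0.76, Ehmt1 at −0.31 and Rnf2 at 0.45. The median of all genes compared there was −0.07. 

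In the IGF and insulin pathway, to which Igf2 and Ins2 belong, 12 of 17 genes tested fell, 2 rose and 3 were not called (82.4% called, against 71.2% of all genes), with a median log2 fold change of −0.68 against 0.0069 for all genes. Igfbp7, which binds insulin-like growth factors weakly, fell from 73.9 to 11.6 scaled reads (−2.61). Pappa, a protease that frees these growth factors from their binding proteins, fell from 11.1 to 1.89 (−2.28), and Irs1, the docking protein of the receptors, fell from 5.21 to 1.11 (−1.81). Fibroblast markers, all 8 lower with a median of −2.40, moved with this list, and their part was not tested. In the single libraries 14 of its genes had a median log2 ratio of Dnmt1-null to WT of −0.34. Igfbp7 was at 3.55 cpm in WT and 1.89 cpm in Dnmt1-null there, Irs1 at 2.14 and 0.631 cpm, and Pappa at 3 counts and 1 count. Of 9 relatives of the members by family, 6 fell, 2 rose and 1 was not called (88.9% called, against 71.2% of all genes; median −0.86), with Kcnq3 (−1.56), Kcnq5 (−1.23) and Cdkn1b (−1.05) the most changed.

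Imprinted genes of other domains moved in both directions. In the Dlk1-Meg3 domain 3 of 6 genes rose, 2 fell and 1 was not called (median log2 fold change 0.01), with Dlk1 at 0.91, Dio3 at −0.83 and Rtl1 at 0.36. Of 7 imprinted genes tested from a list drawn up as paternally expressed elsewhere, 4 rose, 2 fell and 1 was not called (median 0.69). The list wrongly held Zim1, which is maternally expressed; without it 3 of 6 rose and the median was 0.59. The list was led by Peg10 (2.54), Mest (1.80) and Plagl1 (1.26). In the single libraries Peg10 was lower in Dnmt1-null (412 cpm) than in WT (1440 cpm), a log2 ratio of −1.80, while Mest (0.91) and Plagl1 (1.57) were higher; Dlk1 was at −0.16. Whether these lists differ from the members was not tested.

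In the single libraries, H19 was low with active dCas9-OGA and abundant with the inactive enzyme. Values are cpm, the share of a library's counts after TMM scaling, with exact 95% Poisson intervals, and ratios have exact 95% binomial intervals; both cover counting error only, and with 1 library per condition there is no replicate check and no test. Members with at least 100 counts in both libraries summed were compared, and a difference counts as 2-fold on log2(cpm + 0.5). Of 7 members compared between dCas9-OGA and dCas9-OGA-D242A, 5 differed at least 2-fold (2 up, 3 down with the active enzyme), against a background of 12.1% of 12722 genes (4.88% higher, 7.22% lower). With DESeq2 size factors or a pseudocount of 1 the count was 4 (2 up, 2 down), since Kcnq1ot1 (log2 ratio −1.02) came to −0.97 and −0.96.

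H19 had 171 counts with dCas9-OGA (6.89 cpm, 5.90 to 8.0) and 4713 with dCas9-OGA-D242A (190 cpm, 184 to 195). The WT library, with 4495 counts (181 cpm), was close to the inactive enzyme, and the Dnmt1-null library had 2577 (136 cpm). H19 was 27.5-fold lower with dCas9-OGA than with dCas9-OGA-D242A (23.6 to 32.2), and 3 of the 12722 genes compared had a lower ratio.

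Igf2 had 240 counts with dCas9-OGA (9.67 cpm), 1030 with dCas9-OGA-D242A (41.4 cpm), 4957 in WT (200 cpm) and 280 in Dnmt1-null cells (14.7 cpm). Unlike H19, it was below WT in both dCas9 libraries, 20.7-fold with the active enzyme (18.2 to 23.6) and 4.83-fold with the inactive one (4.51 to 5.17). Between active and inactive enzyme it was 4.29-fold lower (3.72 to 4.95). Per kilobase, the H19 to Igf2 ratio was 2.11 in WT, 21.4 in Dnmt1-null, 1.66 with dCas9-OGA and 10.6 with dCas9-OGA-D242A.

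Kcnq1ot1 had 13 counts in the WT library (0.524 cpm), 137 in Dnmt1-null (7.21 cpm), 130 with dCas9-OGA (5.24 cpm) and 277 with dCas9-OGA-D242A (11.1 cpm). WT was the low library, and the 3 others were all above it. Dnmt1-null was 13.7-fold above WT (7.77 to 26.5) and dCas9-OGA-D242A 21.3-fold (12.2 to 40.4), while dCas9-OGA was 2.13-fold below dCas9-OGA-D242A (1.72 to 2.64). Its exon spans 93092 bases as annotated, so its level per kilobase was low in every library, at most 0.120 cpm per kb.

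Cdkn1c and Slc22a18 were higher with the active enzyme. Cdkn1c had 1754 counts with dCas9-OGA (70.7 cpm), 468 with dCas9-OGA-D242A (18.8 cpm), 1094 in WT (44.1 cpm) and 268 in Dnmt1-null cells (14.1 cpm). It was 3.75-fold higher with dCas9-OGA than with dCas9-OGA-D242A (3.39 to 4.16). The inactive enzyme itself was 2.34-fold below WT (2.1 to 2.62), so against WT the active enzyme was 1.60-fold higher (1.48 to 1.73).

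Slc22a18 had 594 counts with dCas9-OGA (23.9 cpm), 147 with dCas9-OGA-D242A (5.91 cpm), 109 in WT (4.40 cpm) and 64 in Dnmt1-null cells (3.37 cpm). The library of the active enzyme stood above the 3 others. The ratio to dCas9-OGA-D242A was 4.05-fold (3.37 to 4.88), and that to WT was 5.44-fold (4.43 to 6.74).

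Phlda2 had 2453 counts with dCas9-OGA (98.8 cpm), 1686 with dCas9-OGA-D242A (67.8 cpm), 2171 in WT (87.6 cpm) and 572 in Dnmt1-null cells (30.1 cpm). The ratio of active to inactive enzyme was 1.46 (1.37 to 1.55), below 2-fold. Ascl2 had 244, 254, 480 and 220 counts in the same order (9.83, 10.2, 19.4 and 11.6 cpm). Its ratio of active to inactive enzyme was 0.962, with an interval from 0.804 to 1.15, and both dCas9 libraries were below WT, by 1.97-fold (1.69 to 2.31) and 1.89-fold (1.62 to 2.21).

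Kcnq1 had 22 counts with dCas9-OGA, 2 with dCas9-OGA-D242A, 5 in WT and 0 in Dnmt1-null cells; the ratio of active to inactive enzyme was 11 with a counting interval from 2.71 to 96.6. Ins2 had 0 counts in all 4 libraries, with upper 95% Poisson limits between 0.148 and 0.194 cpm.

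**Figure D3:**
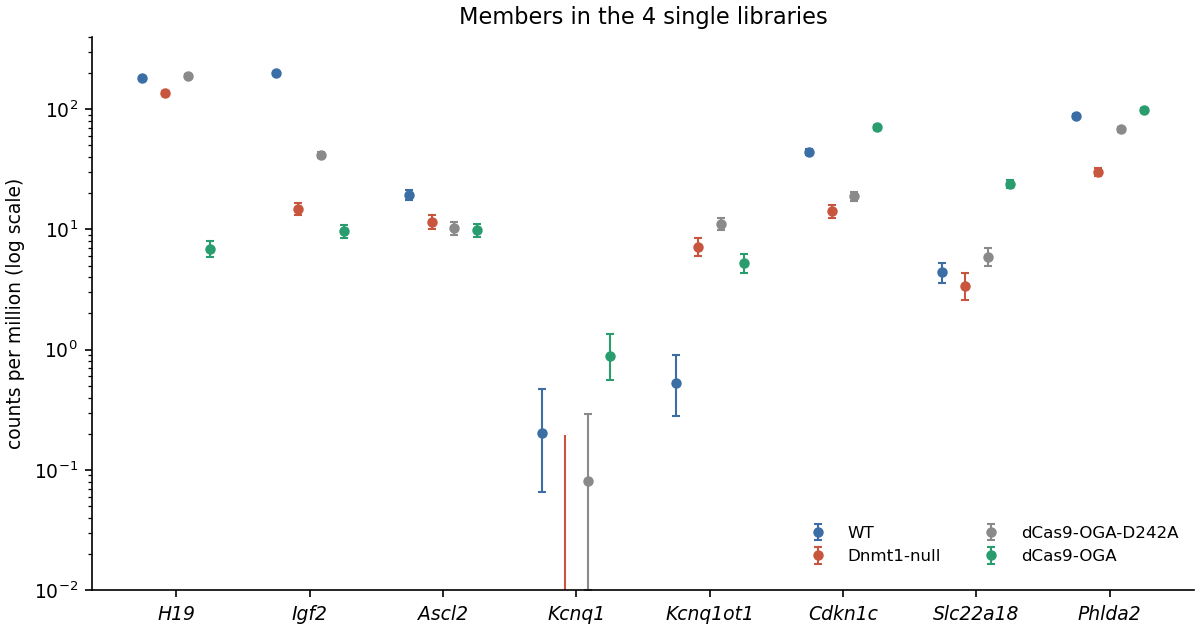
Cpm (log axis) of 8 members in the 4 single libraries, with exact 95% Poisson intervals; an interval that reaches 0 runs to the bottom of the axis, and the Dnmt1-null library, at 0 counts for Kcnq1, shows only its interval. H19 with dCas9-OGA (6.89 cpm) lies far below the 3 other libraries, and Kcnq1ot1 in WT (0.524 cpm) lies below the 3 others.

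**Figure D4:**
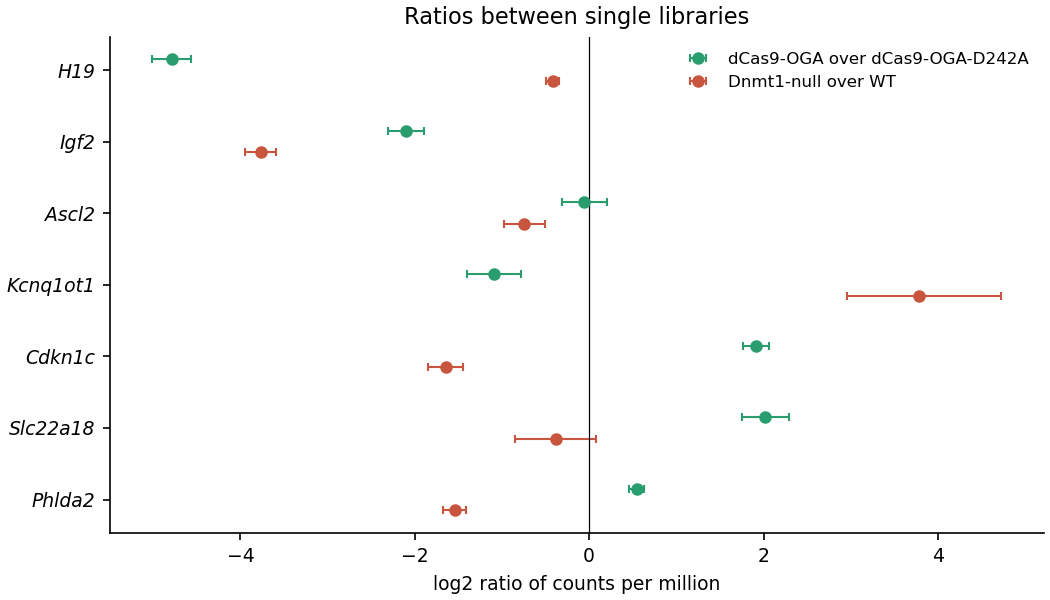
Log2 ratio of cpm, with no pseudocount, for the 7 members compared: dCas9-OGA over dCas9-OGA-D242A, and the single Dnmt1-null over the single WT library, with exact 95% binomial intervals that cover counting error only. H19 and Igf2 were below 0 in both, Kcnq1ot1, Cdkn1c and Phlda2 had opposite signs in them, and the intervals of Ascl2 (first ratio) and Slc22a18 (second ratio) include 0.

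Compared with WT, 4 of 7 members were at least 2-fold apart with dCas9-OGA (2 higher, 2 lower; background 23.8%, 14.0% higher and 9.78% lower) and 3 of 7 with dCas9-OGA-D242A (1 higher, 2 lower; background 20.8%, 12.5% higher and 8.28% lower). These comparisons and that of Dnmt1-null share the WT library. The 9 neighbours compared between dCas9-OGA and dCas9-OGA-D242A had a median log2 ratio of 0.19, with 1 at least 2-fold higher and none lower (background 4.88% higher and 7.22% lower). Sums of ES cell markers differed between these libraries, at 6411 cpm with dCas9-OGA and 3945 cpm with dCas9-OGA-D242A, against 4900 in WT and 3899 in Dnmt1-null. Sums of trophoblast markers were 40.5 and 26.9 cpm in these 2 libraries, which had nearly equal cpm of Ascl2, against 99.9 in WT and 24.8 in Dnmt1-null, which differed in it. Plet1 made up 31.3 and 8.21 cpm of the first 2 sums; without it they were 9.23 with dCas9-OGA and 18.7 with dCas9-OGA-D242A, and the 4 markers compared between them (1 at least 2-fold higher, 2 lower) had a median log2 ratio of −0.33. Those of primitive endoderm markers were 38.8 and 20.6 cpm, against 53.1 and 18.6. Fibroblast markers summed to 42.1 cpm with dCas9-OGA and 70.5 cpm with dCas9-OGA-D242A, and the 5 compared (0 at least 2-fold higher, 3 lower) had a median log2 ratio of −1.15. The part of these markers in the ratios was not tested. 

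The single Dnmt1-null and WT libraries gave a second view of the loss of Dnmt1, with 4 of 7 members at least 2-fold apart (1 higher, 3 lower; background 17.4%, 10.5% higher and 6.89% lower). Igf2 was 13.6-fold lower (12.0 to 15.4), Cdkn1c 3.13-fold lower (2.74 to 3.59) and Phlda2 2.91-fold lower (2.65 to 3.20), in the direction of the replicate libraries. Fibroblast markers summed to 53.6 cpm in the single WT and 34.6 cpm in the single Dnmt1-null library (42.1 with dCas9-OGA and 70.5 with dCas9-OGA-D242A). The 5 compared between Dnmt1-null and WT had a median log2 ratio of −1.10, with 3 at least 2-fold lower and 0 higher. Their part in the ratios of the members was not tested. H19 was 1.34-fold lower (1.27 to 1.4) and Ascl2 1.67-fold lower (1.42 to 1.97) in the single Dnmt1-null library, opposite in direction to the replicates. Trophoblast markers, which in the replicate libraries were higher in Dnmt1-null cells, summed to 99.9 cpm in the single WT and 24.8 cpm in the single Dnmt1-null library, again in the direction of Ascl2; their part was not tested. Replicate and single libraries were normalized apart, so levels were not compared across them.

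Over all 10 libraries, with each table centred on its own mean, the genes nearest to H19 by Euclidean distance between log2 profiles, of 12497 genes, were Stmn2 (1.43), Acan (1.47) and Rab3b (1.5), against a median distance of 4.35. Nearest to Igf2 were Csf1 (0.945), Prss23 (1.03) and Thbs1 (1.10), with a median of 4.59. Nearest to Cdkn1c were Grb10 (0.738), Oaf (0.785) and Ncam1 (0.810), with a median of 3.20. Grb10, an imprinted adaptor that damps insulin and IGF receptor signalling, had 293 scaled reads in WT and 94.5 in Dnmt1-null cells, and 210 cpm with dCas9-OGA against 39.4 cpm with dCas9-OGA-D242A. Nearest to Phlda2 were Zfp768 (0.137), Gpc1 (0.347) and BC034090 (0.367), with a median of 1.98.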

How the data were processed

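Per the labels, reads were mapped to mm10 (tools named: HISAT2 2.1.0 for the replicate libraries, TopHat2 2.0.11 for the dCas9 libraries, Bowtie2 2.2.2) and counted on genes with featureCounts 1.5.0; the study's methods name HISAT2 and Ensembl genes. For the 4 single libraries the authors deposited raw counts per gene (18693531 to 25097983 per library). For the 6 replicate libraries they deposited a signal, reads divided by a scaled library size; the third column of each file was taken as the value, since the headers did not match the columns. Whole reads (within 0.01 read) were recovered for 100% of values and summed to between 26846275 and 37112247 per library.

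Genes passing edgeR's filterByExpr on these reads (17297) were tested with limma 3.58.1 (trend) on log2(value + 0.5), Benjamini-Hochberg adjusted at 0.05. A log2 fold change on this scale understates the change of low genes. Alternatives were DESeq2 1.42.0 and edgeR's quasi-likelihood test (4.0.16) on the recovered reads, pseudocounts of 0.1 and 1, no filter, TMM scaling, a replicate block and leaving out each library. On simulated data for Dnmt1-null against WT (17297 genes), limma recovered 182 of 200 changed genes with 15 false calls. Far more genes (12324) were called in the data than were changed in the simulation, so these figures do not give the error rate of the calls reported here. Single libraries were scaled with TMM and compared without a test. The single WT and Dnmt1-null columns were tied to a group, not to a replicate.

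Named genes were every member, neighbours called and at least 1.5-fold apart, the 3 most changed called genes of each list, the 3 genes most like H19, Igf2, Cdkn1c and Phlda2, and Dnmt1. Grb10 was then described for its place among these, Zim1 and Plet1 for their part in a list, and Peg3 and Smchd1 beside Kcnq1ot1. Members and lists were chosen with earlier results of these data known. R 4.3.3 and Python 3.11.15 were used. O-GlcNAc ChIP libraries and DNA methylation were not analysed here.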

Additional observations from a re-analysis of the deposited data

Results flagged for a closer look

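H19 and Ascl2 differed in direction between the single and the replicate libraries of the same genotypes. H19 had a log2 ratio of Dnmt1-null to WT of −0.42 in the single libraries and a log2 fold change of 1.35 in the replicate libraries, where all 3 Dnmt1-null values were above all 3 WT values. Ascl2 had a log2 ratio of −0.72 in the single libraries and 0.69 in the replicates. The difference between the 2 sets of libraries was not tested, since there is 1 single library per genotype. Igf2 (−3.72 and −2.41), Cdkn1c (−1.61 and −1.94), Phlda2 (−1.53 and −0.89) and Slc22a18 (−0.34 and −0.31) had the same sign in both.

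Among the other genes named from the lists, with at least 100 counts summed, 9 also rose in the replicates and had a log2 ratio below 0 in the single libraries. They were the imprinted genes Peg10 (−1.80) and Dlk1 (−0.16), the factors Dnmt3l (−0.31) and Ehmt1 (−0.31), the trophoblast markers Hand1 (−2.50), Eomes (−0.74) and Gata3 (−1.48), and the primitive endoderm markers Sox17 (−1.79) and Sox7 (−0.97). These differences were not tested.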

How the results depend on the processing

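Of 190 recomputed values of members under the alternatives, 183 kept their direction and their side of the threshold, and none reversed; 25 recomputed counts of genes stayed within 1.5 times. The log2 ratio of Kcnq1ot1 between dCas9-OGA and dCas9-OGA-D242A fell under 2-fold with DESeq2 size factors (−0.97) and a pseudocount of 1 (−0.96). The other 5 were the log2 fold change of Slc22a18, which lost its call with DESeq2 (−0.37, adjusted p = 0.058), with no filter (−0.31, limma adjusted p = 0.065) and without WT replicate 1 (0.06), WT replicate 2 (0.067) or Dnmt1-null replicate 2 (0.098); leaving out 1 library gave a range of −0.36 to −0.24, and the cause was not tested. H19 ranged from 1.28 to 1.39, Igf2 from −2.50 to −2.35 and Cdkn1c from −2.05 to −1.84 over 13 alternatives. The number of genes called was 12324, and 11404 (DESeq2) to 13271 (no filter). Replicate numbers did not pair the samples: deviations of libraries with the same number correlated at 0.074, −0.016 and 0.065 over 17297 genes, and a fit with the replicate number as a block called 12556 genes. In the single libraries, counts of 0 to 22 limit Ins2 and Kcnq1, and 13 counts in WT limit the ratio of Kcnq1ot1, whose log2 value for dCas9-OGA-D242A over WT ran from 2.99 to 4.17 with the pseudocount.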
